A study of Mus musculus with 24 samples.

Results

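The probes described here are the 150 mouse oligonucleotide probes, of 16463 on the array, that were chosen by their higher signal in the ischemic than in the non-ischemic region of mouse hearts after ischemia and reperfusion. The choice was limited to 16451 probes printed on 1 spot. These were ranked by mean signal in the channel of the ischemic region over 24 arrays, the 300 highest ranks were set aside, and the 7700 probes that followed, down to rank 8000, were kept. In the authors' deposited table, the log2 ratio of ischemic over non-ischemic region was above 0 in all 3 replicate numbers for 1733 of the 7700, and the 150 with the highest mean were taken. The 7700 probes are called the rank range below and serve as the background for medians and for shares above 0. Counts of tested probes are set beside all mouse probes, which include dimmer ones.

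Occlusion of a coronary artery deprives the downstream muscle of blood, and reperfusion restores the flow while adding injury of its own. The non-ischemic region of the same heart keeps its supply and shares the circulating signals. Conditioning consists of brief cycles of ischemia and reperfusion, applied before the long occlusion (preconditioning) or after its release (postconditioning), and is known to limit injury of heart muscle. Neither gene names nor probe sequences are paired with the probe identifiers in the files, and 0 of the identifiers were found in the gene table for GRCm38.p6. The tissue could therefore not be checked against marker genes, and the probes are described by their values.

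All hearts were from C57BL/6 mice, and every group had 40 min of occlusion and 60 min of reperfusion. Hearts without conditioning are called IR, and RNA of their ischemic region was in 1 channel of all 24 arrays. The other channel held RNA of conditioned hearts or of the region that had kept its supply in IR hearts (NonIschemic). Conditioning was 3 cycles, each with ischemia for 1 min and flow for 1 min. It was given 10 min before the occlusion in the PreC group, and in the PostC and Post30 groups it began 1 min and 30 min into reperfusion. Each of the 4 groups had 6 arrays, that is 3 replicate numbers hybridised with both dye orientations, which were averaged to give n = 3. The labels do not say whether a number stands for 1 heart, several hearts or a repeat, so a p-value measures only how these samples spread, which may be technical.

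All values are log2 ratios of IR over the group, so that a value above 0 means more signal in the ischemic region of IR hearts. This direction follows the channel numbering of the files and is likely but not settled. In bulk RNA, more cells of a type and more RNA per cell cannot be told apart. Array median intensities were only 1.29 to 4.26, on a scale whose highest value was 1360, and the number of arrays limits the precision.

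In the authors' deposited table, which chose the probes, the means over 3 numbers ran from 0.3816 to 1.9979 with a median of 0.50. As ratios, these means ran from 1.3 to 3.99 with a median of 1.42, and 14 of the 150 probes had a mean log2 ratio of at least 1. The limit fell in a dense stretch of the ranking, since the deposited mean was 0.3816 at place 150 and 0.381 at place 151. Number 2 gave the highest of the 3 deposited values for 133 probes, number 3 for 10 and number 1 for 7. The lowest of the 3 deposited values was under 0.1 for 20 probes and above 0.3 for 56.

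Background-corrected ratios computed from the array files gave the same picture for the contrast that chose the probes, and they are used from here on. The median log2 ratio of IR over NonIschemic was 0.23 in number 1, 0.77 in number 2 and 0.35 in number 3, for a mean of 0.45 ± 0.28 (SD, n = 3). The medians of the rank range lay between -0.00 and 0.01 on all 12 extract pairs, an extract pair being 1 group and number. Of the 149 probes with 3 values, 141 were above 0 in all 3 numbers. This is a description of what the choice used, and no test of it was made.

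Against the conditioned hearts, the same probes had positive medians in 8 of 9 extract pairs, and in each group the highest of them was that of number 2. The median of IR over PreC was 0.03, 0.27 and 0.18 in numbers 1, 2 and 3, with 81, 135 and 116 of the 150 probes above 0. The median of IR over PostC was 0.06, 0.44 and -0.00, with 87, 145 and 73 probes above 0. The median of IR over Post30 was 0.03, 0.39 and 0.09, with 86, 143 and 100 probes above 0. In the rank range, 49.7% to 53.2% of probes were above 0 in these pairs, beside 48.7% to 96.7% of the 150. Nearest to the rank range were number 1 of PreC, PostC and Post30 (54%, 58% and 57.3%) and number 3 of PostC (48.7%). The means over numbers were 0.16 ± 0.12 against PreC, 0.16 ± 0.24 against PostC and 0.17 ± 0.19 against Post30 (SD, n = 3). The SD thus exceeded the mean for PostC and Post30, and without number 2 the PreC mean was 0.10, the PostC mean 0.03 and the Post30 mean 0.06.

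The IR RNA stands on the same side of these ratios and of the ratio that chose the probes, so a positive value is in part built into the choice. Read probe by probe, 63 of the 150 (42%) were above 0 in all 3 numbers of IR over PreC, beside 17% of the rank range. For PostC the count was 60 (40%) beside 21.8%, and for Post30 it was 62 (41.3%) beside 17.6%. In all 3 numbers, 3 probes were below 0 in PreC, 2 in PostC and 3 in Post30. Over the 9 conditioning pairs, 12 probes (8%) were above 0 in every one, beside 1.93% of the rank range. A further count placed 72 probes above 0 in 7 to 9 pairs, 75 in 4 to 6 and 3 in 0 to 3. For this split and for the probes below 0, the shares of the rank range were not computed, so both are only a description. Across all 3 protocols and all 3 numbers, therefore, 12 of the 150 were on the IR side of 0 in each comparison, while the others were on the other side at least once.

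The levels along the ranking are given as a description, since the ranking and all 4 ratios share the IR RNA. For places 1 to 50 of the ranking, the median of the probes' means was 0.70 for IR over NonIschemic, 0.32 for IR over PreC, 0.15 for IR over PostC and 0.19 for IR over Post30. For places 51 to 100 these medians were 0.44, 0.17, 0.15 and 0.11. For places 101 to 150 they were 0.36, 0.08, 0.12 and 0.17. The medians fell at each step of the ranking for NonIschemic and PreC, and did not for PostC and Post30. Differences between protocols in this order were not tested. The mean over the 9 conditioning pairs was above 0 for 136 probes and below 0 for 14, and it exceeded the probe's own IR over NonIschemic mean for 2. For these counts the shares of the rank range were not computed. The choice asked for a high IR over NonIschemic mean and shares the IR RNA, so the counts are in part built in and only a description.

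To separate the choice from the reading, the rule was applied to the NonIschemic arrays of 2 numbers and the chosen 150 probes were read in the number left out. With number 1, 2 or 3 left out, 128, 100 and 122 of the chosen probes were also among the 150 above. The regional difference held in each left-out number, although leaving out a number does not remove RNA that all numbers may share. The median of IR over NonIschemic was 0.18 in number 1, 0.51 in number 2 and 0.32 in number 3 (mean 0.33 ± 0.16, SD, n = 3), with 89.3%, 88% and 91.3% of the probes above 0. In the rank range, 50.3% to 51.6% of probes were above 0.

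The difference from conditioned hearts was smaller in the left-out numbers and did not hold in all of them. The median of IR over PreC was -0.03, 0.18 and 0.16 in numbers 1, 2 and 3, with a mean of 0.10 ± 0.11 (SD, n = 3). For PostC the medians were 0.09, 0.32 and -0.00, with a mean of 0.13 ± 0.17. For Post30 they were 0.02, 0.29 and 0.09, with a mean of 0.13 ± 0.14. The SD was at least as large as the mean for each protocol, and without number 2 the PreC mean was 0.07, the PostC mean 0.04 and the Post30 mean 0.06, beside a NonIschemic mean of 0.25.

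The probes were also chosen on a single number and read in another, without number 2 on either side. Probes chosen on number 1 and read in number 3 had medians of 0.12 for IR over NonIschemic, 0.10 for PreC, -0.05 for PostC and -0.01 for Post30. Probes chosen on number 3 and read in number 1 had medians of 0.16, 0.02, 0.00 and 0.02 in the same order of groups. The regional median was the highest of the 4 in both readings, and that of PostC was the lowest. PreC lay above Post30 in the first reading (0.10 beside -0.01), while in the second both stood at 0.02.

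Taking the ratio of each conditioned group over NonIschemic leaves the IR channel out of the comparison as far as the IR RNA of a number was the same on both arrays. In the left-out numbers 1, 2 and 3, the median of PreC over NonIschemic was 0.20, 0.28 and 0.15 (mean 0.21 ± 0.07, SD, n = 3). The median of PostC over NonIschemic was 0.13, 0.21 and 0.26 (mean 0.20 ± 0.06). The median of Post30 over NonIschemic was 0.14, 0.21 and 0.21 (mean 0.19 ± 0.04). All 9 medians were above that of the rank range, and 62.7% to 81.3% of the probes were above 0, beside 46.4% to 51.9% of the rank range. The median of the chosen probes was thus higher in conditioned hearts than in the non-ischemic region in each of 3 protocols and 3 left-out numbers. The NonIschemic RNA, however, is in the choice and in these ratios alike. Leaving out a number does not remove RNA that all numbers share, and the labels do not say whether they share any. A positive value may therefore be in part built into the choice. The 3 protocols share the NonIschemic arrays, so their 9 medians are not independent.

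The higher position of number 2 was also visible in the separate channels. After subtraction of the rank range and centring of each probe over the 12 pairs, the probes' median log2 signal in the IR channel of number 2 was 0.22 to 0.23 on the arrays of the 4 groups. In number 1 the IR channel stood at -0.01 to 0.03, and in number 3 at -0.21 to -0.19. The IR channel of a number therefore kept its position whichever RNA was hybridised beside it. In the other channel, NonIschemic stood at -0.04, -0.29 and -0.31 in numbers 1, 2 and 3, while PreC stood at 0.21, 0.20 and -0.17. PostC stood at 0.14, 0.02 and 0.06, and Post30 at 0.19, 0.06 and -0.04. The channels were examined after the height of number 2 had been seen, and the IR RNA of a number and a hybridisation or labelling batch of that number cannot be told apart.

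Within a group, number 2 minus the mean of numbers 1 and 3 had a median of 0.52 over the probes for NonIschemic, 0.11 for PreC, 0.35 for PostC and 0.34 for Post30. It was above 0 for 142 of 149 probes in NonIschemic, 109 of 150 in PreC, 129 in PostC and 138 in Post30. The rank range had medians of -0.00 to 0.01, with 49.1% to 52.2% of its probes above 0. The median SD of a probe over 3 numbers was 0.34 for IR over NonIschemic beside 0.10 in the rank range, and 0.19 to 0.26 for the conditioning groups beside 0.09 to 0.10. Taking the highest means with number 2 highest for 133 of the 150 favours such a spread, and the conditioning ratios share the IR RNA, so these values are a description of the choice.

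The medians of the 2 dye orientations of a pair differed by at most 0.06 in any of the 12 pairs. In NonIschemic number 2 the median was 0.82 with the group's RNA in Cy3 and 0.76 with it in Cy5, and in PostC number 2 it was 0.43 and 0.44. Where medians were low, such a gap was large beside the level: in Post30 number 3 they were 0.07 and 0.12, and in PostC number 3 they were -0.01 and -0.06. Across the 150 probes, the ratios of a pair's 2 orientations correlated with r from 0.44 to 0.92, and across all probes with r from 0.04 to 0.46. These correlations are across probes, which are not independent replicates, and the 2 arrays of a pair share their RNA.

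The tests were made with limma on all mouse probes, with Benjamini-Hochberg adjustment over all of them in each comparison and an adjusted p under 0.05 as the threshold. For IR over PreC, 0 of the 150 probes passed, as did 0% of all 16459 probes tested. For IR over PostC, 0 of 150 passed beside 0% of all probes, and for IR over Post30, 0 of 150 passed beside 0.0729%. The lowest adjusted p among the 150 in limma was 0.709 in the PreC comparison, 0.0537 in that of PostC and 0.097 in that of Post30. At an unadjusted p under 0.05 with IR higher, there were 40 probes (26.7%) for PreC beside 3.81% of all probes, 45 (30%) for PostC beside 7.73%, and 38 (25.3%) for Post30 beside 3.85%. The IR RNA is in the choice and in these ratios alike, so the shares above the background are a description. The spread in the tests was estimated over all 4 groups together, including the NonIschemic values on which the choice was made. The median SD of the 150 probes was 0.34 in NonIschemic and 0.19 to 0.26 in the conditioning groups. Their p-values and confidence intervals, here and below, thus depend in part on the choice.

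Averaged over the 3 protocols, IR over any conditioning called 18 of the 150 probes (12%) beside 0.972% of all 16456 probes, and all 18 were higher in IR. All probes include dimmer ones than the rank range. With testing limited to probes above the median intensity, 34 of the chosen probes were called (22.8% of those tested) beside 4.45%. The 9 conditioning pairs share 3 numbers, and with these as a random block 6 of the 18 were called. The log2 differences of the 18 ran from 0.14 to 0.58 with a median of 0.32, and 9 of the 18 were above 0 in all 9 pairs. The count at an unadjusted p under 0.05 with IR higher was 79 (52.7%) beside 8.29%. The median difference over the 150 probes was 0.16, and the median half-width of a probe's 95% confidence interval was 0.17. That half-width was computed with 8 degrees of freedom, while the p-values of limma rest on more. The interval is therefore somewhat wider than one that matches the p-values.

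These counts moved with single extract pairs and with the treatment of the replicate numbers. For any conditioning, limma called 36 probes without NonIschemic number 2, beside 1.94% of all probes, and 8 without NonIschemic number 3, beside 0.407%. The count without PreC number 1, 2 or 3 was 6, 4 and 10, beside 0.194%, 0.17% and 0.802% of all probes. Without PostC number 1, 2 or 3 it was 9, 5 and 6, beside 0.51%, 0.201% and 0.194%. Without Post30 number 1, 2 or 3 it was 5, 4 and 8, beside 0.28%, 0.231% and 0.273%. For PostC the count was 5 without NonIschemic number 1, beside 0.267%, and 20 without NonIschemic number 2, beside 1.45%. For Post30 it was 4 without NonIschemic number 2, beside 0.134%, and 2 without PostC number 2, beside 0.0911%. With replicate numbers fitted as a fixed block, which pairs the conditioning groups, limma called 10 probes in PreC, 33 in PostC, 21 in Post30 and 69 for any conditioning, beside 0.243%, 2.31%, 0.632% and 3.97% of all probes. The fixed block leaves the deviation shared by a number in the group means, which makes its p-values against IR too small. A random block for the number used a single consensus correlation estimated over all probes (0.0782). Number 2 minus the mean of numbers 1 and 3 was larger for the 150 probes than for the rank range. Its medians were 0.35 beside 0.01 in PostC and 0.34 beside -0.00 in Post30. The random block thus keeps only part of their shared deviation in the error, and their p-values may still be too small. With it, limma called 0 probes for PreC, 3 for PostC, 1 for Post30 and 6 for any conditioning. The shares of all probes were 0%, 0.194%, 0.085% and 0.261%, and all 6 were among the 18. Without number 2 in every group, an alternative chosen after seeing the data, 13 probes were called for PostC, 10 of them higher in IR, beside 0.529% of all probes. For Post30 there were 6, 3 of them higher in IR, beside 0.128%. For any conditioning there were 13, 11 of them higher in IR and 9 among the 18, beside 0.711%.

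The protocols were then set against each other, which takes the IR RNA out of the difference as far as it was shared within a number. The median over the 150 probes was 0.02 for PostC against PreC, 0.01 for Post30 against PostC and -0.01 for Post30 against PreC, here with the named first group over the second. In limma with adjustment over all probes, 0 of 150 passed in each, beside 0%, 0.00608% and 0% of all probes, and the lowest adjusted p was 0.563, 0.963 and 0.517. At an unadjusted p under 0.05 in either direction, there were 20 probes (13.3%) for PostC against PreC beside 8.19% of all probes, 14 (9.33%) for Post30 against PostC beside 4.65%, and 17 (11.3%) for Post30 against PreC beside 4.67%. Of the 20, 5 were higher and 15 lower in PostC than in PreC. The same split over all probes was not computed, so these directions are only a description. These tests used no replicate block, and the median half-width of a probe's 95% confidence interval was 0.42. It was also computed with 8 degrees of freedom and is somewhat too wide for these p-values. A difference between protocols as large as the median for any conditioning (0.16) lay inside that half-width. It was not detectable for a typical probe in that fit. With numbers as a fixed block, limma also called 0 of 150 for each difference between protocols. The shares of all probes were 0% for PostC against PreC, 0.0182% for Post30 against PostC and 0.0122% for Post30 against PreC. What the fixed-block fit could detect was not tested. Without number 2 in every group, limma called 3 probes for Post30 against PreC, beside 0.0304% of all probes.

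A few probes stand for the spread within the list, by a rule that took the top of the ranking and both ends of the mean over the 9 conditioning pairs. Probe Mm::M200012783 had the highest deposited mean. Its log2 ratio of IR over NonIschemic was 0.99, 3.34 and 1.23 in numbers 1, 2 and 3, and its ratio of IR over PreC was 1.90, 1.24 and 1.57. The ratio of IR over PostC was 0.00, 2.18 and -1.58, and that of IR over Post30 was 0.15, 1.39 and -1.21. It was thus above 0 in all 6 values of NonIschemic and PreC, and on both sides of 0 in PostC and Post30. In limma its adjusted p was 0.719 for IR over PreC (mean 1.57 ± 0.33, SD, n = 3), and 0.4 for any conditioning (0.63, SE 0.33).

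Probe Mm::M200003295 had the highest mean over the 9 conditioning pairs, and number 2 decided it. Its log2 ratio of IR over NonIschemic was -0.19, 2.86 and 0.04 in numbers 1, 2 and 3. The ratios were -0.53, 2.60 and -0.00 for PreC, 0.24, 2.38 and 0.08 for PostC, and 0.15, 2.97 and -0.49 for Post30. The number 2 value was above 2 log2 units in every group, and all other values lay between -0.53 and 0.24. The difference for any conditioning was 0.82 (SE 0.41, limma adjusted p = 0.368), and it was -0.09 without number 2. Its spots exceeded the 95th percentile of empty spots on 12 of 24 arrays in the IR channel and on 5 of 24 in the other.

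The probe with the lowest mean over the conditioning pairs was Mm::M200002070. Its log2 ratio of IR over NonIschemic was 0.10, 1.72 and 0.23, while IR over PreC was -1.42, -0.05 and 0.21. IR over PostC was -0.73, 0.11 and -0.44, and IR over Post30 was -0.68, 0.47 and -0.82. The conditioning values were thus below 0 in 6 of 9 pairs, and the limma adjusted p for any conditioning was 0.378 (-0.37, SE 0.19).

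Probe Mm::M200012822 had the second lowest mean over the conditioning pairs, and its PreC and Post30 values lay apart. Its log2 ratio of IR over NonIschemic was 0.74, 0.77 and 0.41, and that of IR over PreC was 0.74, 0.17 and 0.47. IR over PostC was -0.58, 0.53 and -1.01, and IR over Post30 was -1.32, -0.47 and -1.69. All 3 PreC values were above 0 and all 3 Post30 values below it, so these groups did not overlap, while PostC overlapped both. Post30 over PreC was 1.62 (SE 0.33), and its limma adjusted p over all probes was 0.517.

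The chosen probes were brighter than the rank range from which they came. Signal in the IR channel entered the rule through both the rank limits and the ratio, so these values are a description. Their median brightness rank was 2397 beside 4150.5, where rank 1 is the brightest, and 66, 49, 19 and 16 of them fell in 4 equal parts of the rank range, from the brightest to the dimmest. The median background-subtracted intensity was 8.11 beside 3.73 in the IR channel and 5.33 beside 3.32 in the channel of the groups. In the IR channel, 75 probes (50%) exceeded the 95th percentile of empty spots on 24 of 24 arrays, beside 33.5% of the rank range. Only part of the list thus stood above empty spots throughout.

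The probe numbers were unevenly represented. With the rank range split into 4 equal parts by the number in the identifier, 68 of the 150 probes (45.3%) fell in the part with the lowest numbers, and 26 to 30 in each of the others. Among the brightest of 4 equal parts by signal, the lowest numbers made up 53% of the chosen probes beside 28.6% of the rank range, and among the dimmest 25% beside 24.4%. Split by spot identifier instead, the 4 parts held 29, 38, 42 and 41 probes. These counts were made after seeing the data, and the sources used here do not say what the number stands for.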

How the data were processed

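Two-colour spotted arrays of amplified RNA were analysed. Per the file headers, the deposited array files hold foreground and local background intensities of both channels and a quality mark per spot, with 17664 spots each. The authors' deposited table holds log2 ratios, made with a method that the sources used here do not give. On all arrays its values correlated with r of at least 0.99997 with log2 ratios of IR over group after loess without background subtraction, so scale and direction were taken from this match. Column medians were -0.013 to 0.00828. The deposited ratios correlated with the background-corrected ones used here with r from 0.428 to 0.81 per array.

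Background was corrected with normexp (limma 3.58.1, R 4.3.3) and arrays were normalized by loess. The offset of 50 was scaled to 1.03 because intensities reached only 1360 and not 65535. Between 2 and 25 marked spots per array and the 1009 control and empty spots were left out. Direction rests on file channel 1 being the labels' channel 1: the Cy3 channel then had the higher background on 24 of 24 arrays. Correlations between arrays of 1 orientation from different groups ran from 0.103 to 0.597.

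Dye orientations were averaged into 12 extract pairs. Group means were fitted with lmFit and eBayes (8 residual degrees of freedom), with Benjamini-Hochberg adjustment over all mouse probes. The fit was run on simulated data with noise drawn independently for each pair. That run does not test the fit where pairs of a number share their deviations. Deviations from the group mean correlated between same-numbered pairs of conditioning groups by 0.215 to 0.396, in 9 of 9 comparisons, and exceeded 0.1 in 6 of 9 with NonIschemic (0.0102 to 0.378). The numbers, taken from the labels, thus pair the conditioning groups.

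The members, the lists and the rule for named probes were chosen with earlier results of these data known. Named are the probe highest in the ranking, and the highest and the 2 lowest by mean over 9 conditioning pairs. The alternatives varied background correction, normalization, value source, dye, replicate block, filter, threshold, replicates and the choice of probes. Gene lists were not used, since probes could not be named.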

Additional observations from a re-analysis of the deposited data

Results flagged for a closer look

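For probe Mm::M200012822, Post30 over PreC was 1.62 on the log2 scale, because all 3 IR over PreC values were above 0 and all 3 IR over Post30 values below 0. The limma test of this difference gave an adjusted p of 0.517 over all probes. Such a split was looked for among the named probes only, and this probe was named for a low mean that includes its Post30 values.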

How the results depend on the processing

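Counts and medians both depended on the processing: over all alternatives, the median of the 150 probes ran from 0.0223 to 0.2923 in the PreC comparison, from 0.0239 to 0.2819 in that of PostC and from -0.0107 to 0.3179 in that of Post30. With the literal offset of 50, the PreC median was 0.0223, the PostC median 0.0239 and the Post30 median 0.0244, the regional median in left-out numbers 0.0362 and the count for any conditioning 0. Plain subtraction also gave 0 for any conditioning, beside 0.00608% of all probes (0% with the offset of 50). Its median for IR over Post30 was -0.0107, with the rank range at -0.0957. Without background subtraction the counts were 2 for PostC (0.261% of all probes), 2 for Post30 (0.194%) and 40 for any conditioning (7.19%). With the authors' deposited values they were 2 (0.267%), 2 (0.17%) and 37 (6.9%), the last including 17 of the 18. Median centring gave medians of 0.2923 for PreC and, in left-out numbers, 0.2258 for PreC and 0.2784 for Post30. Its counts were 33 for PostC (3.12% of all probes), 27 for Post30 (1.09%) and 108 for any conditioning (22%). Median centring also put the rank range at 0.1086 in PreC, 0.1017 in PostC and 0.1338 in Post30. The fixed replicate block gave 10 for PreC (0.243%), 33 for PostC (2.31%), 21 for Post30 (0.632%) and 69 for any conditioning (3.97%), including all 18. With this block the limma adjusted p of Mm::M200003295 for any conditioning was 5.1e-05. The random replicate block gave 3 for PostC, 1 for Post30 and 6 for any conditioning, beside 0.194%, 0.085% and 0.261% of all probes. In the same order, only probes above the median intensity gave 11, 1 and 34, beside 2.08%, 0.243% and 4.45% of those probes. A threshold of 0.1 gave 12, 1 and 39, beside 1.2%, 0.121% and 3.04% of all probes. Leaving out replicates gave 0 to 20 for PostC, 0 to 6 for Post30, 4 to 36 for any conditioning and 0 to 3 for Post30 against PreC. At the highest counts, the shares of all probes were 1.45%, 0.128%, 1.94% and 0.0304% in that order. For Mm::M200003295, leaving out 1 replicate gave up to 1.0501. Without number 2 in every group it turned to -0.0928 (limma adjusted p = 0.709), and Mm::M200012822 was -0.5641 with an adjusted p of 0.00396. The replicate filters use fewer samples and the intensity filter tests fewer probes, but the cause of these changes was not tested for any alternative. Of the member medians, 43 of the alternative values moved by less than the spread between numbers and 2 by more. That spread (SD) was larger than the median itself for PostC (0.24 beside 0.16) and Post30 (0.19 beside 0.17). The loss of the whole median, such as the -0.0107 for Post30, was therefore counted as less than the spread. The count of 43 is no measure of stability. Low signal over background limits all values of dim probes.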
